A study of Mus musculus with 31 samples.

Results

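The genes of the transforming growth factor beta (TGF-beta) and bone morphogenetic protein (BMP) pathways were examined in a map of open chromatin of mouse NIH-3T3 fibroblasts. The list held 48 named genes out of 21938 protein-coding genes of chromosomes 1 to 19, X and Y. It was chosen by name and not by signal, though with earlier results of these data known. It comprised 17 ligands, 1 ligand-processing protease, 12 receptors and co-receptors, 8 Smads, 2 latent complex proteins, 4 secreted antagonists and 4 target genes. Of these, 31 genes had a promoter peak, meaning a peak whose interval lay within 1 kb of an annotated transcription start site (TSS) of the gene. This is 64.6% of the list, beside 53.7% of all protein-coding genes. The share differed between roles, with all 8 Smads, 10 of 12 receptors, 5 of 17 ligands and 1 of 4 antagonists open in this sense.

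The map came from 1 ATAC-seq library of parental NIH-3T3 cells, a line of mouse embryonic fibroblasts grown in serum, for which the labels list neither a transgene nor doxycycline. ATAC-seq uses the Tn5 transposase (0.5 µM here, on 50000 cells, with 12 PCR cycles) to cut and tag accessible DNA. The other 30 samples of the series carried 1 of 13 overexpressed transcription factors or the rtTA3G control, with doxycycline at 500 ng/ml for 48 h, and were not analysed here. There was no replicate and no second condition, so no test was made and all comparisons are between genes and peaks of 1 library.

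Ligands of this family bind pairs of type I and type II receptor kinases. The receptors phosphorylate Smad proteins, which join the common partner Smad4, enter the nucleus and bind DNA next to other factors such as AP-1. TGF-beta and activin act mainly through Smad2 and Smad3, and BMPs through Smad1, Smad5 and Smad9. Secreted antagonists such as noggin trap BMPs outside the cell, and the inhibitory Smad6 and Smad7 dampen the signal inside it. In fibroblasts TGF-beta is best known for driving matrix production, and the Id genes are textbook BMP targets.

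The deposited list held 63456 peaks, of which 47192 were distal, here meaning over 1 kb from every annotated TSS. Peak height is given as the fold enrichment, the ratio of fragments covering the summit to the number expected locally, each with 1 added. The number of fragments at the summit was solved from the deposited values, with a median of 29 and a lowest value of 10 over all peaks. Intervals are exact Poisson 95% intervals and cover counting error only. The library's total depth is not known from the list, and a weak site may be absent from the list for want of fragments. In a check of the fibroblast label, 10 of 10 fibroblast genes, among them Col1a1, Pdgfra and Twist1, had a promoter peak. Their fold enrichments ranged from 3.41 at Thy1, with 12 fragments, to 10.5 at Fn1. Markers of other cell types were open less often, at 1 of 4 epithelial, 1 of 4 blood, 2 of 3 endothelial, 0 of 3 neural and 0 of 2 liver genes. The open endothelial genes were Pecam1 (fold enrichment 8.40) and Cdh5 (12.8).

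The sequences with the closest link to the pathway lay at the Id genes, which encode inhibitors of bHLH transcription factors. Smad1 and Smad5 are known to bind the GC-rich letters GGCGCC next to a GTCT bound by Smad4, 5 bases away, in BMP response elements of Id genes. This composite sequence, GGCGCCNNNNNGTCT on either strand, occurred 447 times in the chromosomes searched and lay inside 52 of all peaks (0.0819%). Among distal peaks it lay inside 9 of 47192 (0.0191%). Peaks of the windows of the 48 genes, defined as the gene with 25 kb on either side, held it 5 times. All 5 peaks were at Id1, Id2 or Id3, and 4 of them were distal, which is 44.4% of the distal peaks with this sequence. The composite was searched because of its known place at Id genes, so its finding there describes these sites and does not single them out independently. The 5 windows of 61 bp centred on the composite are printed because they hold these letters inside open chromatin. Binding of Smads to them was not measured. The composite letters are in capitals, and each name gives the summit position of the peak in bp from the gene start, in mm10.
Id1 3233, chr2:152739448-152739508, plus strand: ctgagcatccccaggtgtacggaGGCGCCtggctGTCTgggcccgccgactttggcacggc
Id2 -1676, chr12:25098831-25098891, minus strand: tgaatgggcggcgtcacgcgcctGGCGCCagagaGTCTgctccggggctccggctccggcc
Id3 -2986, chr4:136140517-136140577, plus strand: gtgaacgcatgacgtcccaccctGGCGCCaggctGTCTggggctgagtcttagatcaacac
Id3 1101, chr4:136144770-136144830, plus strand: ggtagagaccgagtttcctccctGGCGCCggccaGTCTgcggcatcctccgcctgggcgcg
Id3 4371, chr4:136147958-136148018, plus strand: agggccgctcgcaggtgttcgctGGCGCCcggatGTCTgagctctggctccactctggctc

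These 5 peaks were of low to middling height, beside a median fold enrichment of 6.04 over all peaks. The peak upstream of Id3 was the highest of them, at 7.88 with 58 summit fragments. The peak upstream of Id2 had a fold enrichment of 5.76 with 103 fragments, the most of the 5. The others were weak, since the peak downstream of Id1 reached 3.10 with 42 fragments, the peak in an Id3 exon 3.15 with 24, and the peak downstream of Id3 3.31 with 20. In 2 of the 5 peaks, Id1 3233 and Id3 -2986, the composite lay within 50 bp on either side of the summit, and in the other three it lay farther out in the interval. The 4 Id windows held 7 of the 9 occurrences of the sequence in all member windows.

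**Figure D1:**
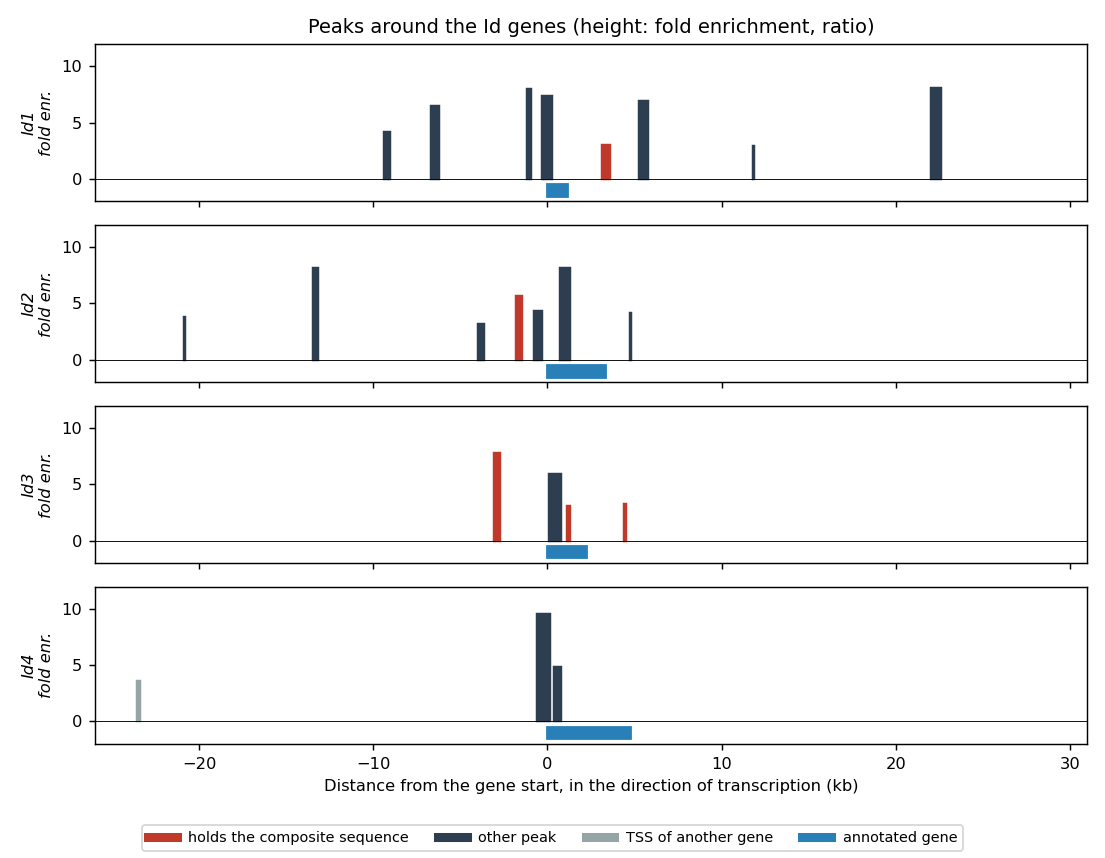
Peaks in the windows of Id1, Id2, Id3 and Id4, drawn at their distance from the gene start in kb in the direction of transcription (horizontal axis), with bar width showing the peak's length and bar height its fold enrichment (vertical axis, ratio). Red bars mark the 5 peaks with the composite sequence, of which 3 are at Id3, and the blue boxes mark the annotated genes.

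All 4 Id genes had promoter peaks, 8 in total, and the 4 short windows held 22 peaks. Per 100 kb of window the median over the 4 genes was 10.4 peaks, beside 3.84 for coding genes. Id1 had 8 window peaks (15.6 per 100 kb), a density above that of 98.6% of coding genes counting ties as evenly split. Id2 had 7 (13.1 per 100 kb), Id3 4 (7.65) and Id4 3 (5.47), so all 4 densities lay above the median for coding genes. These genes are also short, with a median length of 2.80 kb beside 17.4 kb for coding genes, so that most of each window is flank. The promoter peaks themselves were not tall by fold enrichment, and none of the 4 reached the median of open coding promoters, 9.86. In fragments Id1 (86) and Id2 (154) lay above the coding median of 64, and Id3 (46) and Id4 (48) below it.

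Id2 stood apart in its fragment number. Its highest promoter peak was covered by 154 fragments (interval 131.0 to 180.0), the most of any member, beside a median of 64 for open coding promoters. Yet its fold enrichment was 8.27, because the local expectation was 17.7 fragments, whereas the value most frequent over all peaks was 2.81. The neighbouring peak at -1676 also had a high local expectation, at 17 fragments. At Id2 the order of heights therefore depends on the measure used, and the fold enrichment and the fragment number are both given.

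At Id1 the tallest promoter peak had its summit at -1037 bp from the gene start, with a fold enrichment of 8.07 and 86 fragments, and a further peak over the start itself reached 7.44 with 81. The summit window of the former held the cAMP response element TGACGTCA, which was found in 0.503% of all summit windows (the summit with 50 bp on either side) and in 1.36% of those within 1 kb of a TSS. Of the 52 promoter peaks of the members it occurred in 2, the other being at the start of Ltbp1. Both windows are shown because they hold the same element, with its letters in capitals.
Id1 -1037, chr2:152735164-152735264, plus strand: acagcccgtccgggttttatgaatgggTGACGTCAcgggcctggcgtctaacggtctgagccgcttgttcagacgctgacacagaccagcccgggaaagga
Ltbp1 -66, chr17:75005452-75005552, plus strand: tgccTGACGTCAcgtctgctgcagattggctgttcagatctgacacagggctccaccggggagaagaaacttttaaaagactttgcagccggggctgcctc

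An Id1 flank peak with its summit at -6516 bp and a fold enrichment of 6.55 held GGCGCC near its summit but no GTCT at the set distance. It is shown for comparison with the composites, with GGCGCC in capitals. Searched alone on either strand, GGCGCC lay in 7 of the members' 202 distal summit windows (3.47%) and in 1.41% of all distal windows, and these counts include the composites.
Id1 -6516, chr2:152729685-152729785, plus strand: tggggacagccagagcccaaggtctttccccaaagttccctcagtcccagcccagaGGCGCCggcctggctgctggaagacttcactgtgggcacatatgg

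Id3 had its promoter peak at 6.02 with 46 fragments, the lowest of the 4 genes. Id4, with the tallest Id promoter peak at 9.70 and 48 fragments, had no distal peak in its window, and its remaining window peak lay at a TSS of Gm36346. The Id4 promoter peak also lay in introns of A330033J07Rik and Gm49291, which overlap the gene.

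Among the ligands, which are the secreted growth factors, 5 of 17 had a promoter peak (29.4%). These were Tgfb1, Tgfb3, Inhba, Inha and Gdf11, and their median fold enrichment was 7.63. By family, 2 of 3 TGF-beta genes, 2 of 3 inhibin subunit genes, 1 of 5 GDF genes and 0 of 6 BMP genes were open. The signals themselves were thus open less often by count than the receptors and Smads that read them.

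Inhba, which encodes the subunit of activin A, had the tallest ligand promoter, at 10.1 with 61 fragments (46.7 to 78.4). It was the only ligand above the median fold enrichment of open coding promoters, 9.86. In fragments it lay below their median of 64, which its interval included, while Inha, with 81, lay above. Tgfb3 stood at 7.63 with 55 fragments. Tgfb1, the most studied TGF-beta, had 3 promoter peaks over a stretch of several annotated TSSs. The highest of them, at 6.15 with 54 fragments, lay 2388 bp after the gene start, and the peak over the start itself reached 4.36 with 37. Gdf11, an activin-like ligand, was lower still at 4.43 with 32 fragments (21.9 to 45.2), a height above that of 5.94% of open coding promoters.

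Inha, the inhibin alpha subunit gene, was open by the distance rule only. Its peak (8.67 with 81 fragments) ended 369 bp from the Inha TSS, and its summit lay nearer to a TSS of Obsl1. Without it the list had 30 open members.

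The 12 ligand genes without a promoter peak were Tgfb2, Bmp2, Bmp3, Bmp4, Bmp5, Bmp6, Bmp7, Inhbb, Gdf5, Gdf6, Gdf10 and Gdf15. Their median distance from a TSS to the nearest peak was 20756 bp, close to the 23094 bp for coding genes without a promoter peak. Gdf15, a stress-induced circulating factor, came nearest at 1600 bp, inside the gene, and it was the member that became open when the limit was set at 2.5 kb. Bmp6 followed at 3610 bp and Gdf5, a factor of joint formation, at 3986 bp. At the other end stood Bmp4 at 125713 bp, Gdf6 at 80686 bp and Bmp2 at 62649 bp. Bmp2, Bmp4 and Gdf6 had no peak anywhere in their windows, which they shared with the antagonist gene Fst alone among the 48. By comparison, 44 of 48 members and 80.1% of coding genes had at least 1 window peak.

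The TGF-beta genes differed in where their peaks lay. Tgfb2 had its nearest peak 14308 bp from a TSS but 7 distal peaks in its window. The taller pair of these lay in an intron 78250 bp into the gene, at chr1:186627288-186628019 with a fold enrichment of 15.9, and beyond the gene end, at chr1:186609844-186610428 with 16.5. Both exceeded the tallest ligand promoter. In contrast, Tgfb1 had 2 distal peaks, the taller at 10.7 over an exon of the neighbouring Ccdc97, and Tgfb3 had 1, at 3.41.

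The BMP genes with window peaks also had them away from the start. Bmp6, an iron-related BMP, had 6 intron peaks with fold enrichments of 4.46 to 9.34, the nearest to the start centred 4925 bp into the gene. Bmp5 had 6 distal peaks, at most 9.72, and Bmp3 had 4, at most 8.93. The 2 peaks of Bmp7 lay over 24 kb upstream and reached 7.90. In the windows of Inhbb and Gdf10 the highest peaks were 4.13 and 3.68. In several ligand windows other genes had promoter peaks, and 15 of the 70 ligand peaks lay at the TSS of another gene, such as 4 at Cd63 beside Gdf11.

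The protease gene Bmp1, which cleaves procollagens and chordin and is no BMP ligand despite its name, had a promoter peak of 5.65 with 24 fragments (15.4 to 35.7). Its 3 distal peaks were of similar height, between 4.36 and 4.73.

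**Figure D2:**
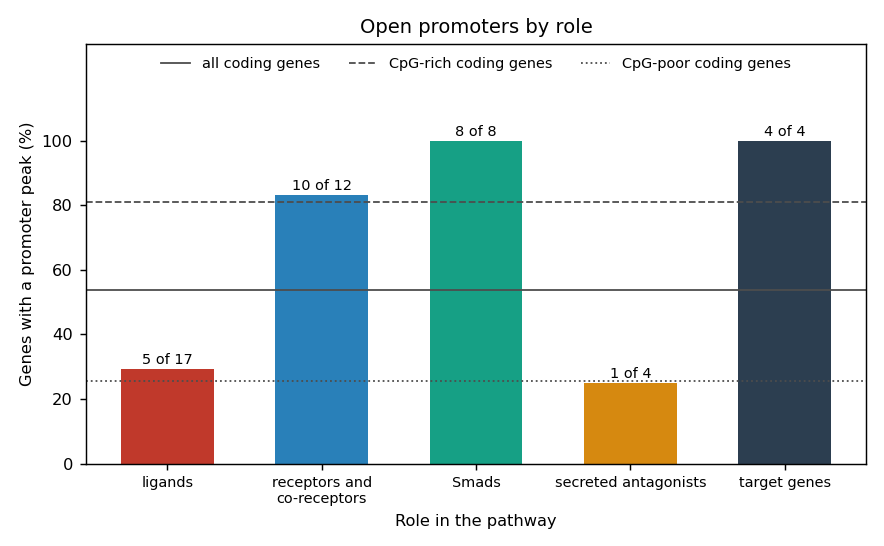
Share of genes with a promoter peak (vertical axis, %) for the roles with at least 4 genes (horizontal axis), with the number open above each bar and lines for all coding genes (53.7%), CpG-rich coding genes (81.1%) and CpG-poor coding genes (25.6%). Receptors, Smads and target genes reach or pass the CpG-rich line, and ligands and antagonists lie near the CpG-poor line. The lines do not give the CpG class of a role. All 4 antagonists, 9 of 17 ligands and 2 of 4 target genes were CpG-rich.

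CpG-rich promoters are known to be open in many cell types, and their share differed between the roles. A promoter was called CpG-rich where the 300 bp from 250 bp before to 50 bp after a coding TSS had an observed over expected CpG ratio of at least 0.6 and a GC content of at least 50%. In genes with several coding TSSs the one with the highest ratio counted, and the promoter peak could lie at another TSS. By this measure 36 of the 48 members (75%) were CpG-rich, beside 50.7% of coding genes. Of the 36, 25 were open (69.4%), beside 81.1% of CpG-rich coding genes. Of the 12 CpG-poor members 6 were open, beside 25.6% of CpG-poor coding genes.

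The shortfall among CpG-rich members lay mostly in 2 roles. All 8 CpG-rich Smads, 9 of 10 receptors, both latent complex genes, Bmp1 and both CpG-rich Id genes were open. Among CpG-rich ligands 2 of 9 were open, and among the antagonists, all CpG-rich, 1 of 4. The 11 CpG-rich members without a promoter peak were Tgfb2, Bmp2, Bmp6, Bmp7, Inhbb, Gdf6, Gdf10, Bmpr1b, Nog, Grem1 and Fst. Several had a very high CpG ratio, such as Fst at 1.08, Nog at 1.00 and Bmp2 at 0.962, values in the range of the open Smad genes. Tgfb2 was near the limit at 0.630. Conversely, Inha, Inhba, Tgfb3, Tgfbr3, Id1 and Id3 were open with CpG-poor promoters. With the limit at 0.75 instead of 0.6, 7 members remained CpG-rich without a promoter peak.

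**Figure D3:**
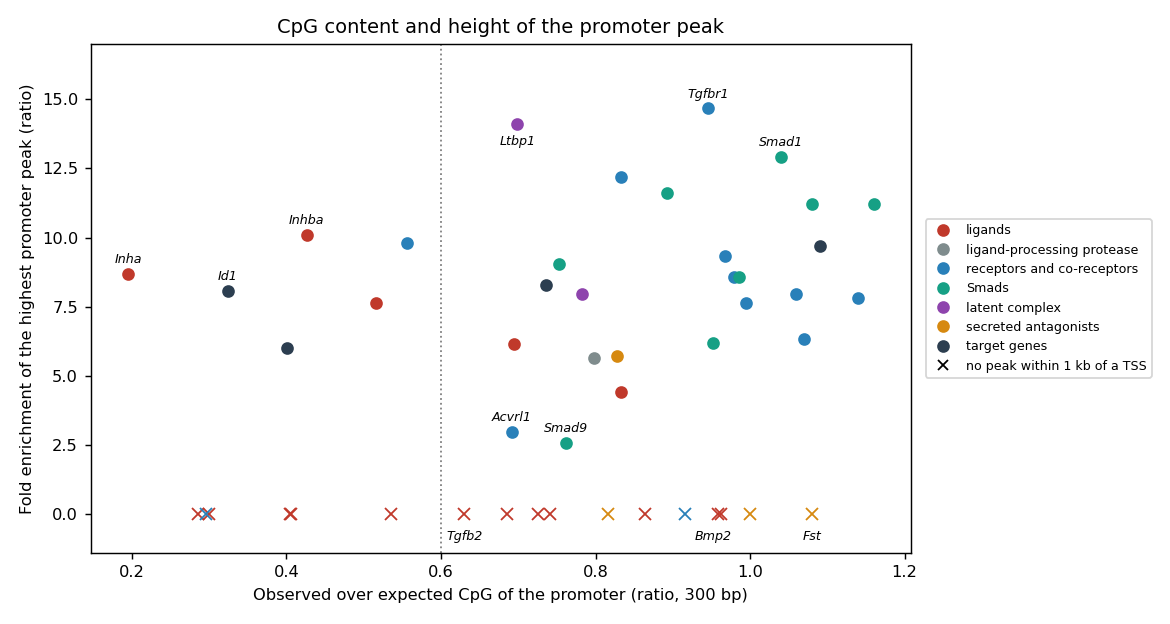
Observed over expected CpG ratio of the promoter (horizontal axis, 300 bp) against the fold enrichment of the highest promoter peak (vertical axis, ratio) for the 48 genes, with crosses at 0 for the 17 genes without a promoter peak and a dotted line at 0.6. Ligands and antagonists make up most of the crosses right of the line, and the Smads all lie right of it with a peak. The ratio and the peak of a gene may belong to different TSSs.

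Of the receptors, 10 of 12 had a promoter peak (83.3%), with a median fold enrichment of 8.28. All 4 type II receptor genes, 5 of 6 type I receptor genes and 1 of 2 co-receptor genes were open. By fold enrichment the TGF-beta receptor pair had the tallest receptor promoters. Tgfbr1, the type I receptor for TGF-beta, reached 14.7 with 104 fragments (85 to 126), the highest promoter of all members and above 90.4% of open coding promoters. Tgfbr2, its type II partner, reached 12.2 with 79 fragments (62.5 to 98.5), above 73.3%. These were the only receptor promoters above the coding median in fold enrichment. In fragments, Bmpr2 (81), Acvr1 (77) and Tgfbr3 (66) also exceeded the coding median of 64.

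The co-receptor gene Tgfbr3, which encodes betaglycan, followed at 9.80 with 66 fragments. The activin type II receptor genes Acvr2b and Acvr2a reached 9.33 and 7.80, with 58 and 45 fragments. For the BMP receptors, Bmpr2 reached 8.59 with 81 fragments over a peak of 1760 bp, wider than 98.6% of open coding promoters. Bmpr1a stood at 7.62 with 57 fragments and Acvr1, a type I receptor for BMPs and activins, at 7.97 with 77. The activin type I receptor gene Acvr1b was lower, at 6.33 with 40 fragments (28.6 to 54.5), an interval below that of Tgfbr1. It also lay below that of Bmpr2, which began at 64.3, while those of Tgfbr3 (51.0 to 84.0), Acvr2b (44.0 to 75) and Bmpr1a (43.2 to 73.9) overlapped.

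Acvrl1, a type I receptor known from endothelium, was open only at an internal TSS, with the peak summit 4776 bp after the gene start. Its peak was 114 bp long with a fold enrichment of 2.96 and 20 fragments (12.2 to 30.9), higher than 0.64% of open coding promoters. Eng, encoding the endothelial co-receptor endoglin, had its nearest peak 6621 bp from a TSS. Its window held 6 peaks, of which 4 lay at TSSs of Ak1 and Fpgs and 1 in an Eng intron 33594 bp after the start, with a fold enrichment of 9.78. The other closed receptor gene was Bmpr1b, a type I BMP receptor. Its window of 382 kb, the second longest of the list, held 3 peaks or 0.785 per 100 kb, the lowest density of any receptor gene.

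Of the roles with at least 4 genes the Smads had the tallest promoters by fold enrichment, with a median of 10.1. In fragments their median was 64, the same as for open coding promoters and below the 67 of the Id genes. All 8 were open, and 4 were above the coding median in fold enrichment, compared with 8 of 31 open members in all. The 8 genes had 15 promoter peaks between them. The BMP-responsive Smad1 was the highest at 12.9 with 84 fragments (67.0 to 104.0), and Smad5 reached 11.2 with 80. The common partner Smad4 stood at 11.6 with 66 fragments (51.0 to 84.0). Of the TGF-beta-responsive genes, Smad2 reached 11.2 with 70 fragments and Smad3 9.03 with 58. The intervals of these 5 genes overlapped, so their order is not resolved by the fragment counts.

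Of the inhibitory Smad genes, Smad6 had fewer fragments, at 37 (26.1 to 51.0). Its interval lay below those of Smad1, Smad2 and Smad5. It ended about where that of Smad4 began and overlapped that of Smad3, so Smad6 and Smad3 are not resolved by the fragment counts. The interval of Smad7 (47.5 to 79.5) overlapped those of the 5 genes above. By fold enrichment Smad7 had its tallest promoter peak, 8.59 with 62 fragments, at an internal TSS, with the summit 8205 bp after the gene start. Its peak on the start side reached 6.97 with 64 fragments. Smad6 had a pair of peaks of nearly equal height, 6.12 over the gene start and 6.17 upstream of it. Both genes are textbook targets of Smad signalling. The palindrome GTCTAGAC, which holds a pair of Smad-binding GTCT letters, lay inside 2 of the 52 promoter peaks of the members, 1 at Smad6 and 1 at Smad7. These are counts over whole peak intervals, in which it lay inside 0.473% of all peaks within 1 kb of a TSS. In summit windows it lay in 0 of the 52 promoter peaks. Of the members' 202 distal peaks 0 held it in the whole interval, beside 0.324% of all distal peaks.

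Smad9, the third of the BMP-responsive Smads, had the lowest promoter peak of all members, at 2.56 with 11 fragments (5.49 to 19.7). Its −log10 q of 1.32 was just over the lowest in the list, 1.3, and the peak was lost at a q of 0.01. The interval lay below those of Smad1 and Smad5, and the Smad9 promoter is CpG-rich like theirs.

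The latent complex genes encode latent TGF-beta binding proteins, and the role name is used here for both. The product of Ltbp1 tethers TGF-beta to the matrix. Ltbp1 had its tallest promoter peak, 14.1 with 107 fragments (87.7 to 129.0), at an internal TSS, with the summit 173007 bp after the gene start. The peak at the start reached 6.45 with 47 fragments, below that interval. Ltbp2 had a promoter peak of 7.97 with 40 fragments, 33 bp from a TSS.

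Of the 4 antagonist genes, Chrd alone had a promoter peak, at 5.73 with 37 fragments, over a start shared with Thpo. Chordin traps BMPs and is cut by the product of Bmp1. Nog, the noggin gene, had its nearest peak 3848 bp away, which was the only peak of its window and reached 4.05. Fst, the follistatin gene, whose product binds activins, had none in its window and the nearest 34002 bp away. Grem1, the gremlin gene, had its nearest peak 6338 bp from its TSS, but its 3 flank peaks were all tall, at 8.25, 8.67 and 16.8. The tallest, at chr2:113773205-113773694 with its summit at -14810 bp from the gene start, was covered by 111 fragments and was the highest distal peak of any member window.

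**Figure D4:**
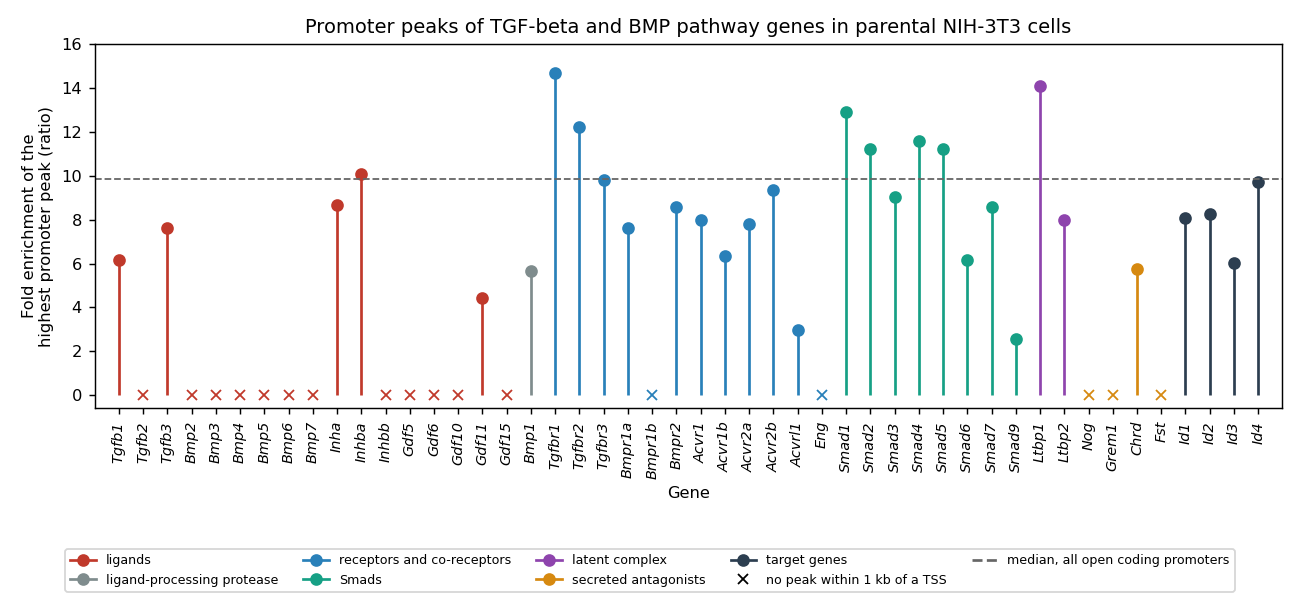
Fold enrichment of the highest promoter peak (vertical axis, ratio) for each of the 48 genes (horizontal axis), coloured by role, with crosses for the 17 genes without a promoter peak and a dashed line at the median of open coding promoters (9.86). Tgfbr1 (14.7) and Ltbp1 (14.1) are highest, and Smad9 (2.56) and Acvrl1 (2.96) are lowest.

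Over all open members the median promoter height was 8.27, from 2.56 to 14.7, beside 9.86 for open coding promoters. The members' median in fragments was 58, beside 64. Of the 31, 8 were above the coding median in fold enrichment, namely Inhba, Tgfbr1, Tgfbr2, Smad1, Smad2, Smad4, Smad5 and Ltbp1. Most open promoters of the pathway were thus below the coding median in fold enrichment. In fragments the set differed, as Inhba (61) lay below the coding median of 64. Inha, Tgfbr3, Bmpr2, Acvr1, Id1 and Id2 lay above it. Compared with coding genes, a larger share of the members was open and a larger share was CpG-rich, as given above. Within the CpG-rich class the members were open less often than coding genes by count (69.4% beside 81.1%). Within the CpG-poor class they were open more often (50.0% beside 25.6%). Whether CpG content accounts for the difference was not tested.

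The windows of the 48 genes held 288 distinct peaks. Of these, 52 were at the gene's own promoter, 34 at a TSS of another gene, 106 in the gene body and 96 in the flanks, so that 202 (70.1%) were distal. A single flank peak was shared by the neighbouring Acvr1b and Acvrl1. The median was 6 peaks per window, beside 3 for coding genes, and 5.15 per 100 kb, beside 3.84. Members were also longer than coding genes, at a median of 34.5 kb beside 17.4 kb. Of the 17 members without a promoter peak, 13 had at least 1 window peak.

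By role, the median density per 100 kb was 10.4 for the Id genes, 7.97 for the latent complex, 5.94 for receptors, 5.66 for Smads, 4.15 for ligands and 3.37 for antagonists. These densities include the promoter peaks. Of distal peaks alone the median per window was 18.5 for the latent complex, 4 for receptors, 3.5 for Id genes, 2.5 for Smads, 2 for ligands and 2 for antagonists, beside 1 for coding genes. Ltbp1 had the most peaks of any member, 27, of which 24 lay in the body of a gene of 387 kb. Tgfbr3 and Acvr1 had 18 each, with 12 each in the gene body, and Ltbp2 had 14. Smad3 had 11 and the inhibitory Smad7 10, beside 2 for Smad1 and 3 for Smad2. Smad1 and Tgfbr1 had tall promoters but only 2 window peaks each, at 1.80 and 1.79 per 100 kb.

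**Figure D5:**
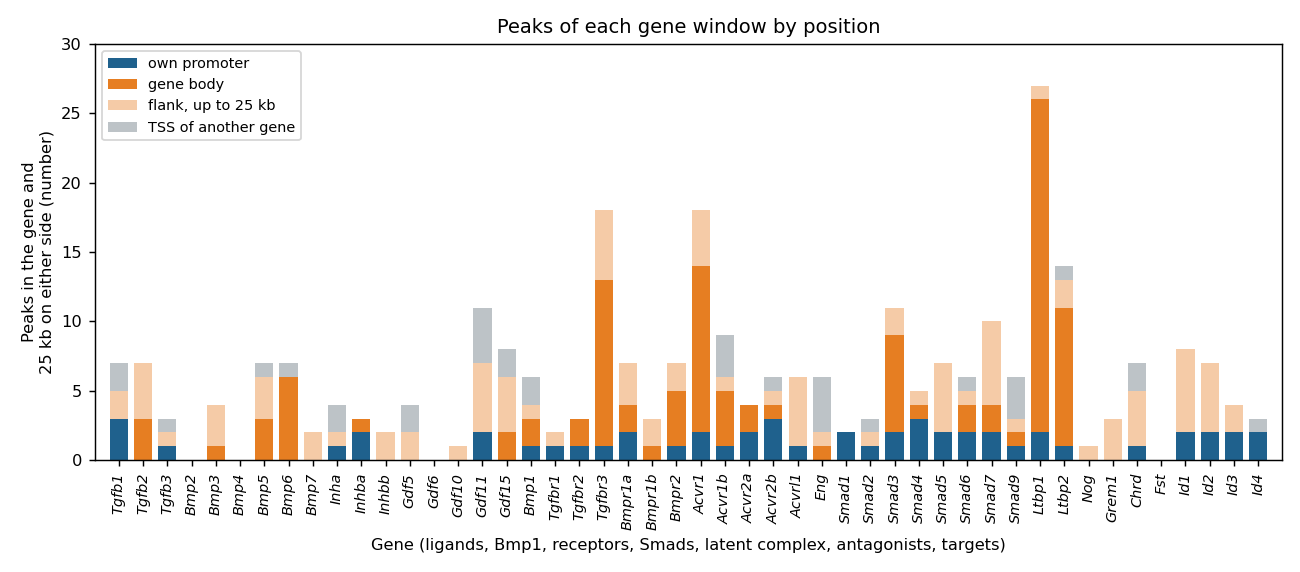
Number of peaks in each gene and 25 kb on either side (vertical axis), stacked by position, for the 48 genes in order of role (horizontal axis). Ltbp1 (27), Tgfbr3 (18) and Acvr1 (18) have the most peaks, mostly in the gene body, and Bmp2, Bmp4, Gdf6 and Fst have none.

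The members' distal peaks had a median fold enrichment of 5.38, near the 5.54 of all distal peaks. The 4 with the highest −log10 q were at Tgfbr3, Acvr1 and Grem1. Beyond the 3′ end of Tgfbr3, chr5:107087100-107087820 had a fold enrichment of 14.8 with 138 fragments and a −log10 q of 110. In Acvr1, an intron peak at chr2:58505448-58506159 reached 16.4 with 115 fragments, and a peak upstream of the gene, in an intron of Upp2, reached 13.8 with 117. Both Acvr1 peaks were higher than the gene's own promoter. In Ltbp1, intron peaks 107552 and 250557 bp after the start reached 10.9 and 14.6, with 134 and 105 fragments. In Tgfbr2, 1 of 2 distal peaks, in an intron, reached 15.4, above its promoter.

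The AP-1 sequence TGACTCA, which reads TGAGTCA on the opposite strand, was searched on both strands because AP-1 and Smad3 are known partners. It lay in the summit window of 42 of the 202 distal peaks of the members (20.8%), beside 26.4% of all distal peaks. By role the counts were 10 of 46 for ligands, 11 of 65 for receptors, 7 of 30 for Smads, 9 of 37 for the latent complex, 4 of 13 for the Id genes, 1 of 3 for Bmp1 and 0 of 8 for antagonists. Ltbp1 with 8, Acvr1 with 5 and Tgfbr3 with 4 had the most such peaks. The members' share was thus no higher than that of distal peaks at large. The Smad-binding letters CAGACA lay in 28 of the 202 windows (13.9%), beside 11.1%, and the TEAD sequence GGAATG in 19 (9.41%), beside 9.52%.

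Summit windows are printed here to show these sequences at distal peaks of a receptor, a ligand, a latent complex gene and a Smad, with TGACTCA or TGAGTCA and, in Acvr1, CAGACA in capitals. They were chosen to hold the motif. The Acvr1 window at 61219 is the intron peak of 16.4 described above, and the Tgfb2 window is the peak of 16.5 beyond the gene end. In the second Acvr1 window the AP-1 and CAGACA letters overlap and are written as a single run of capitals.
Acvr1 61219, chr2:58505888-58505988, minus strand: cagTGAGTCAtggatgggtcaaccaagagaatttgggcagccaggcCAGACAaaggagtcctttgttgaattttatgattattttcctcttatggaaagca
Acvr1 20631, chr2:58546476-58546576, minus strand: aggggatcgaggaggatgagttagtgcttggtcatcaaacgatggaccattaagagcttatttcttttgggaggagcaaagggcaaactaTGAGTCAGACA
Tgfb2 95880, chr1:186610059-186610159, minus strand: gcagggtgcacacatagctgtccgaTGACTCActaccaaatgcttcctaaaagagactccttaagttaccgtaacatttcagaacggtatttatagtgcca
Ltbp1 105063, chr17:75110581-75110681, plus strand: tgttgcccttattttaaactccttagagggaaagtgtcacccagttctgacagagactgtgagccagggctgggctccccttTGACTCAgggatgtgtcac
Smad3 83156, chr9:63674788-63674888, minus strand: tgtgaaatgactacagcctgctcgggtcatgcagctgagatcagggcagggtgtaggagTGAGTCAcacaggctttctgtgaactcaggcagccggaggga

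Of a further list of 64 pathway genes outside the 48, 36 had a promoter peak (56.2%), near the 53.7% of all coding genes. CpG-rich promoters were found in all 12 intracellular regulators of this list but in 3 of its 16 ligands. Among intracellular regulators 11 of 12 were open, led by Map3k7, which encodes the TAK1 kinase (15.2), and Smurf1, a ubiquitin ligase that targets Smads (14.0), with Tgif2 closed. Among other target genes 9 of 11 were open, with Snai2 at 11.7 and Snai1 at 9.51, while Msx1 and Msx2 were closed. Secreted modulators were mixed at 10 of 19, with Twsg1, which modulates BMP binding by chordin, at 9.72, and other receptors and co-receptors at 3 of 6, led by the pseudoreceptor Bambi at 13.9. Of the other ligands 3 of 16 were open, with Gdf9 at 8.90 and Amh at 3.68 the highest.

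An open promoter is not a measure of transcription, and a gene without a promoter peak may still be expressed. The calls were stable for most members, as 25 had and 16 lacked a promoter peak under each planned setting of the peak threshold and the distance rule. The 25 are those whose peak overlapped a TSS, and the other open genes, Acvr1, Acvrl1, Gdf11, Inha, Ltbp2 and Smad9, had theirs beside it.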

How the data were processed

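The data were the ATAC-seq peak list of the parental NIH-3T3 library. Reads were aligned to mm10, cleared of duplicates and used for peak calling by the authors. The submitters' processing notes name STAR 2.5.3a, Picard and MACS2 2.1.1.20160309. The deposited fold enrichment is the ratio of fragments to local expectation at the summit. Also deposited are a −log10 p and a −log10 q from the peak caller's Poisson test, and the deposited score, 10 times the −log10 q, was not used.

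Coordinates are mm10, counted from 1, with the GRCm38 sequence from RefSeq and the GENCODE M21 annotation, both of that build. GENCODE lists Hjv as Hfe2 and Ctgf as Ccn2. Blacklisted regions were not masked here. The methods describe discarding peaks in blacklisted regions and in input for ChIP-seq, and whether the deposited ATAC-seq list was filtered in this way is not known, so a site without a peak may have been removed. Summit fragments were obtained from the ratio and the −log10 p (Python 3.11.15, NumPy 2.4.6, SciPy 1.17.1). Of 4596 simulated summits with a finite −log10 p, 100% were recovered. They were made with the same formula, so this checks the solving step only. Their local expectations all lay above 2.81, the most frequent value in the list. Of the values solved from the deposited peaks, 99.997% lay within 0.02 of a whole number. The depth at summits is thus known, but not that of the library. Each sequence was searched on both strands and scored as present or absent (pysam 0.24.0). Tables were handled with pandas 2.3.3 and plots drawn with matplotlib 3.10.9.

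All 48 members were named. Distal peaks were named by the highest −log10 q, up to 3 per role, and other pathway genes by the tallest promoter, up to 2 per role, and some of these are not reported here. The members, roles and lists were chosen with earlier results of these data known. The search of whole intervals for the composite, the 61-bp windows and the CpG limit of 0.75 were chosen after seeing the data. Alternatives varied the q, fold enrichment, TSS and window limits, the summit window (100 bp on either side, or the whole interval) and the height measure. The other 30 samples were not analysed here.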

Additional observations from a re-analysis of the deposited data

How the results depend on the processing

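Of 85 values recomputed under an alternative setting, 77 stayed within 1.5 times of the reported value or, for shares, within its binomial 95% interval, and 8 did not. Requiring a peak to overlap the TSS left 3 open ligands. A fold enrichment of at least 5 left 173 window peaks and a median of 3 per window, and windows of 10 kb on either side also gave a median of 3. These settings retain fewer peaks by construction. The share of distal peaks with TGACTCA was 28.7% in windows of 100 bp on either side of the summit (36.5% of all distal peaks) and 37.6% in whole intervals (40.8%), and the members' share stayed below that of all distal peaks. Chosen after seeing the data, windows of 50 bp on either side of the summit left 2 peaks with the composite, and a CpG ratio of at least 0.75 left 7 CpG-rich members without a promoter peak. The promoter peak of Smad9 was lost at a q of 0.01, that of Acvrl1 at 1e-05, and both together with Gdf11 at a fold enrichment of 5. No paired analysis was possible because the list comes from a single library. For the same reason no replicate could be left out, and no difference between genes was tested against the spread between libraries.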

Other observations

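Outside the member windows the composite sequence lay in 47 peaks, most of them at promoters, and 1 at the promoter of Skil on the list of other pathway genes. Skil encodes SnoN, a co-repressor of Smad signalling, and that peak had a fold enrichment of 9.30 with 99 fragments. The 5 distal peaks with the composite away from the Id genes were looked up after the values were seen. The tallest lay 11179 bp from the nearest TSS, that of Fos, at 10.5 with 69 fragments. The others were nearest to Gclc (3831 bp, 8.97), Ttc7 (5786 bp, 6.72), Fam160b1 (43286 bp, 3.97) and Eps8l2 (9180 bp, 3.13).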
